A study of Bos taurus with 47 samples.

Results

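A set of 4 bovine genes with lower transcript levels in morulae made by somatic cell nuclear transfer (scNT) than in morulae made by in vitro fertilization (IVF) were followed from the oocyte to blastocyst-derived cells. They are 4 of the 20526 genes in the deposited table, listed as ENSBTAG00000040202, ENSBTAG00000004081, ENSBTAG00000008596 and ENSBTAG00000001585. They had been chosen on their values in the morula libraries of both methods, so those values are given as a description and are not tested. The working name of the set was genes lost early in scNT morulae. By the time of loss used here, which turns on the same morula libraries, ENSBTAG00000040202 and ENSBTAG00000008596 fit that name. ENSBTAG00000004081 was low in blastocysts of both methods and lower in scNT than in IVF morulae, but passed the limit of loss on the same day in both. ENSBTAG00000001585 went the other way: it was low in oocytes, rose to the blastocyst in both methods, and in scNT morulae stood low before that rise. It is described here as a gene that rises late.

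The study profiled RNA longer than the small RNA fraction in 47 libraries of 12 groups, with 4 libraries in each group and 3 in scNT morulae, whose labels carry the numbers 2, 3 and 4. Fibroblasts came from primary ear-biopsy cultures of a Brahma and Spanish cross bull, and oocytes were cultured to the mature (MII) stage. IVF embryos came from mature oocytes fertilized with frozen semen of a Holstein bull. For scNT, the chromosomes of a mature oocyte were removed and a single serum-starved fibroblast was fused with it. Pools of 20 embryos were taken on day 2 (2-cell), day 3 (8-cell), day 6 (morula) and day 8 (blastocyst) after IVF or scNT. IVF zygotes were grown on a layer of cumulus cells, and cumulus cells were also kept for the culture of scNT embryos. The labels give 4 pools per embryo stage in 1 place and 3 in another, so it is not certain that the 4 libraries of a group are 4 separate pools. How the blastocyst-derived cells were grown is not described in those sources. IVF and scNT embryos therefore differ in the sire and in nuclear genotype as well as in the method. Nuclei of scNT embryos came from the bull's fibroblasts, and those of IVF embryos from the oocyte and the Holstein semen. Embryo sex may differ as well, since the fibroblasts were from a bull. These differences and the method cannot be told apart. The labels do not say that replicates came from different animals, so a p-value here reflects spread among pools that may be partly technical.

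A mature oocyte carries a store of messenger RNA made while it grew, and the early embryo runs on that store while its own genome is nearly silent. During the maternal-to-embryonic transition the stored transcripts are degraded and the embryo's own genes are switched on, in cattle mainly from about the 8-cell stage. In scNT the same oocyte store surrounds a nucleus that had been running a fibroblast's genes.

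The libraries held between 4608099 and 16642362 recovered reads, with 5663196 to 8168033 in the scNT morulae and 4783919 to 8241675 in the IVF morulae. None of the 4 identifiers matched the reference table, and the files do not pair identifiers with names, so neither functions nor sequences are given, and the labelled cell types could not be checked against marker genes. Values are normalized read counts, in which each library had been divided by a single factor. They compare a gene between libraries, and levels of different genes are not compared because gene lengths were not used. Statements that groups do not overlap describe the gene, and the share of all genes without overlap was not counted. Differences between groups are on the log2(value + 1) scale, which understates changes of low genes, and a gene is called at a limma adjusted p under 0.05 (Benjamini-Hochberg, two-sided, over all genes tested).

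**Figure D1:**
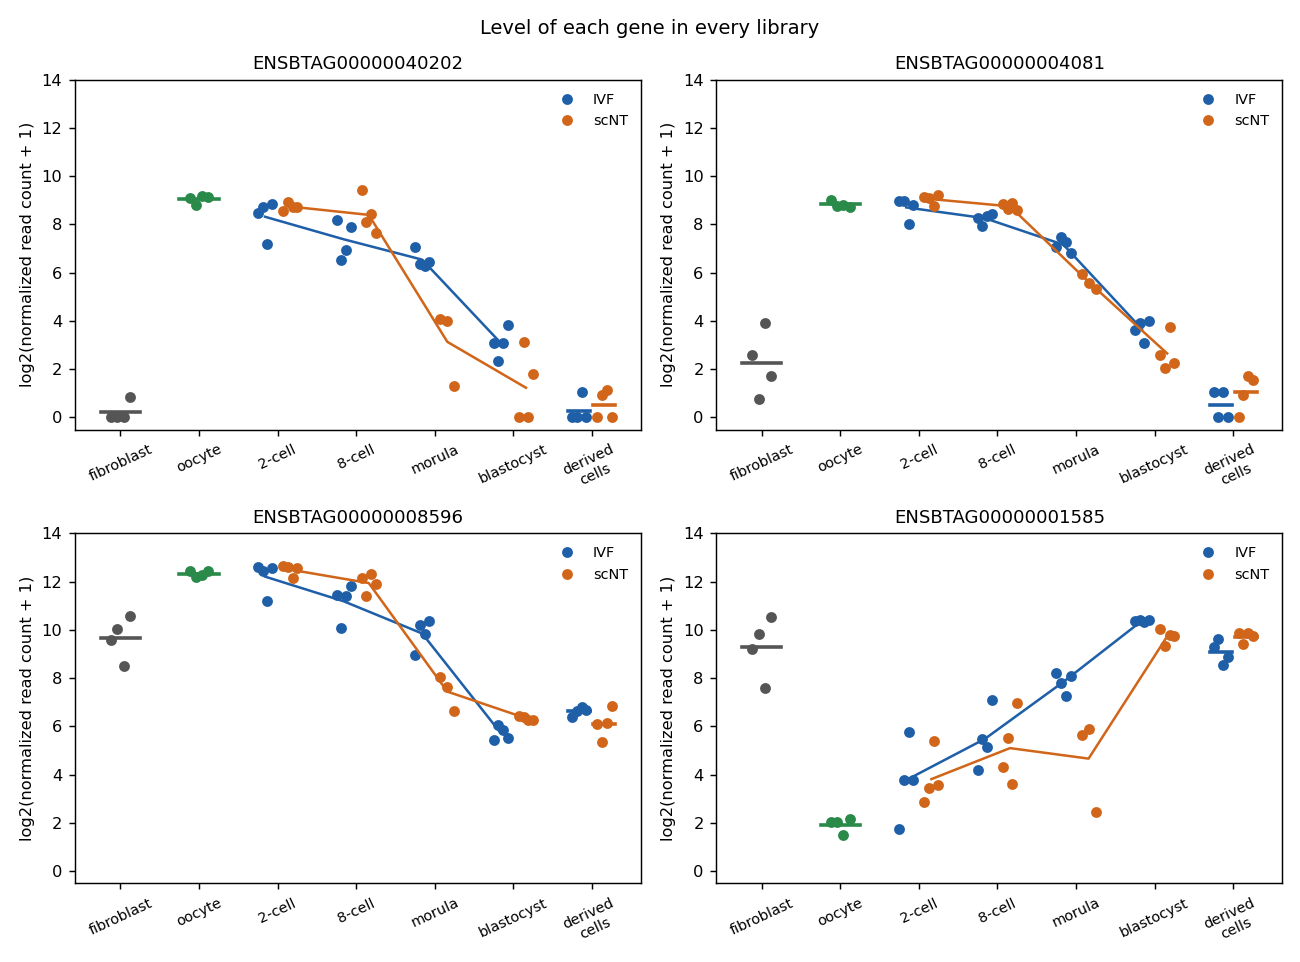
Log2(normalized read count + 1) of each gene (vertical axis) in every library of each group (horizontal axis). Points are libraries, lines join group means from 2-cell embryos to blastocysts, short bars mark the means of the other groups, blue is IVF and orange scNT. The falling genes in scNT morulae lie below every IVF morula library, and ENSBTAG00000001585 rises to the blastocyst but is low in the 3 scNT morula libraries.

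ENSBTAG00000040202 was abundant in oocytes and close to 0 in fibroblasts. The 4 oocyte libraries had 550.1, 453.1, 573.4 and 561.2 normalized counts, and the fibroblast libraries had 0.0, 0.0, 0.0 and 0.8. At the 8-cell stage IVF embryos had 291.3, 91.7, 122.0 and 234.1, and scNT embryos had 682.2, 277.0, 340.6 and 198.5. The scNT libraries lay mostly above the IVF ones, with an overlap between 198.5 and 291.3.

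In morulae the order of the group means was the reverse of that at the 8-cell stage, where the difference was not called. IVF morulae had 134.2, 81.7, 75.9 and 86.6 normalized counts of ENSBTAG00000040202, and scNT morulae had 16.0, 14.9 and 1.5, which rest on 17, 12 and 1 reads. The mean of the IVF morulae, 94.6 ± 26.8 (SD, n = 4), was 8.76 times that of the scNT morulae, 10.8 ± 8.07 (SD, n = 3). The groups did not overlap. Of the 13590 genes in this comparison 18.7% were called, 7.37% higher and 11.3% lower in scNT morulae. On the log2 scale the difference of -3.41 ranked 5th from the lowest.

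By the blastocyst the transcript was almost gone in both methods. IVF blastocysts had 7.4, 4.1, 7.6 and 13.1, and scNT blastocysts had 0.0, 7.7, 0.0 and 2.5 normalized counts. Where the value was 0, the depth still allows up to 3 reads, or 4.97 and 4.60 normalized counts in scNT blastocyst replicates 1 and 3. The gene did not pass the filter on low values for the comparison of the 2 kinds of blastocyst. It stood between 0.0 and 1.2 in all 8 libraries of blastocyst-derived cells.

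ENSBTAG00000004081 followed the same course with a smaller gap. The oocyte libraries had 515.6, 433.0, 450.0 and 421.6 normalized counts, and fibroblasts had 5.0, 0.7, 13.9 and 2.3. IVF 8-cell embryos had 310.7, 247.0, 327.5 and 346.7, and scNT 8-cell embryos had 462.9, 398.3, 477.9 and 387.9. Every scNT 8-cell library was above every IVF 8-cell library.

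IVF morulae then had 134.2, 179.8, 152.9 and 110.6 normalized counts of ENSBTAG00000004081, against 60.2, 47.3 and 39.3 in scNT morulae. All 3 scNT libraries were below all 4 IVF libraries, and the IVF mean of 144 ± 29.3 was 2.95 times the scNT mean of 48.9 ± 10.5 (SD, n = 4 and 3). The log2 difference of -1.54 ranked 665th from the lowest among the 13590 genes, well behind the other members. Blastocysts had 7.6 to 15.0 with IVF and 3.1 to 12.3 with scNT, which overlap, and derived cells had at most 2.3.

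ENSBTAG00000008596 was high in oocytes and also present in fibroblasts. The oocyte libraries had 5546.8, 4697.8, 5019.3 and 5491.8 normalized counts, and the fibroblast libraries, the cell type that gave the scNT nuclei, had 774.2, 1058.4, 366.0 and 1510.0. IVF 8-cell embryos had 2788.1, 1075.0, 2718.6 and 3634.7, and scNT 8-cell embryos had 4614.8, 2720.3, 5048.3 and 3787.6. These groups overlapped, with 2 IVF libraries above the lowest scNT library.

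In IVF morulae ENSBTAG00000008596 had 502.9, 1193.4, 920.4 and 1315.2 normalized counts, and in scNT morulae it had 267.2, 196.8 and 98.2. The IVF mean of 983 ± 360.1 was 5.25 times the scNT mean of 187 ± 84.9 (SD, n = 4 and 3), without overlap, and the log2 difference of -2.41 ranked 75th from the lowest. In blastocysts the order of the group means turned over again. IVF blastocysts had 42.8, 65.3, 57.1 and 45.0, and all 4 scNT blastocyst libraries were higher, at 84.5, 83.6, 76.6 and 76.2. Unlike the other falling genes it was still read in derived cells, at 83.3 to 112.1 with IVF and 40.4 to 115.4 with scNT.

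ENSBTAG00000001585 rose where the others fell. Oocytes had 3.1, 3.1, 1.8 and 3.5 normalized counts and fibroblasts had 599.0, 911.7, 191.5 and 1476.2. At the 8-cell stage IVF embryos had 17.1, 44.0, 34.6 and 137.1, and scNT embryos had 18.7, 44.3, 11.3 and 125.3. The 2 groups overlapped almost fully, and replicate 4 was the highest library in both.

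IVF morulae had 299.3, 221.4, 151.8 and 274.4 normalized counts of ENSBTAG00000001585, all above every 8-cell library of either method. The scNT morulae had 48.9, 58.5 and 4.5, within or below the range of the scNT 8-cell libraries, and the lowest value rests on 3 reads. The IVF mean of 237 ± 65.3 was 6.35 times the scNT mean of 37.3 ± 28.8 (SD, n = 4 and 3), and the log2 difference of -3.18 ranked 8th from the lowest. In IVF blastocysts the gene had 1324.4, 1365.4, 1299.7 and 1347.5, and in scNT blastocysts 1052.3, 653.5, 875.1 and 862.8. The blastocysts did not overlap, and scNT blastocysts were lower.

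Replicate 4 of the scNT morulae was the lowest of the 3 libraries for each of the 4 genes. Without it the log2 difference between scNT and IVF morulae was -2.50 for ENSBTAG00000040202, -1.40 for ENSBTAG00000004081, -2.0 for ENSBTAG00000008596 and -2.08 for ENSBTAG00000001585. Each gene stayed lower in scNT morulae without any 1 of the 7 morula libraries, which follows from the lack of overlap and is no test. In pools of whole embryos, fewer cells with a transcript and less of it in each cell cannot be told apart.

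The time of loss was read as the first stage at which every library was under 10% of the highest mean among the oocyte, 2-cell and 8-cell groups of that method. For ENSBTAG00000040202 this was day 8 in IVF and day 6 in scNT. IVF morulae still held 14.2% to 25.1% of the reference level of 534 normalized counts, and scNT morulae held 0.281% to 2.99%. ENSBTAG00000008596 likewise passed the limit on day 8 in IVF and on day 6 in scNT, with 9.69% to 25.3% left in IVF morulae and 1.68% to 4.57% in scNT morulae. For ENSBTAG00000004081 the day was 8 in both methods, since scNT morula replicate 2 held 11.3% and the other scNT libraries as little as 7.37%. It was day 6 in scNT without that library or with a limit of 25%, while IVF morulae held 24.3% to 39.5%. These days turn on the morula libraries that chose the genes, so they are a description. How many other falling genes had the same days was not counted.

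The rate of change shows the same shift in time. From day 3 to day 6 the mean log2 level of ENSBTAG00000040202 changed by -0.28 per day in IVF and -1.75 per day in scNT, and from day 6 to day 8 by -1.73 and -0.95 per day. For ENSBTAG00000008596 the rates were -0.45 and -1.50 per day up to the morula, and -2.07 and -0.55 per day after it. ENSBTAG00000004081 had -0.37 and -1.04 per day up to the morula and -1.75 and -1.48 after it. Each falling gene thus had its steeper interval after the morula in IVF. In scNT the steeper interval was before the morula for ENSBTAG00000040202 and ENSBTAG00000008596 and after it for ENSBTAG00000004081. For ENSBTAG00000040202 this order leans on scNT morula replicate 4, where the gene had 1 read. Without that library 60.8% of its log2 fall from the 8-cell embryo to the blastocyst was completed in scNT morulae. That is close to an even rate over both intervals. These rates are net changes of normalized levels, in which decay and new transcription are not separated, and they use the morula libraries that chose the genes.

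The rising gene had the reverse order. ENSBTAG00000001585 gained 0.79 per day in IVF from the 8-cell embryo to the morula and 1.27 per day from there to the blastocyst. In scNT embryos it changed by -0.15 per day up to the morula and then by 2.53 per day. By these means its rise after the 8-cell stage in scNT embryos lay mostly in the last 2 days. Without scNT morula replicate 4, where the gene had 3 reads, 14.4% of that log2 rise was completed in scNT morulae. The sign of the change up to the morula therefore turns on that library. These rates use the morula libraries that chose the gene, so they are a description.

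**Figure D2:**
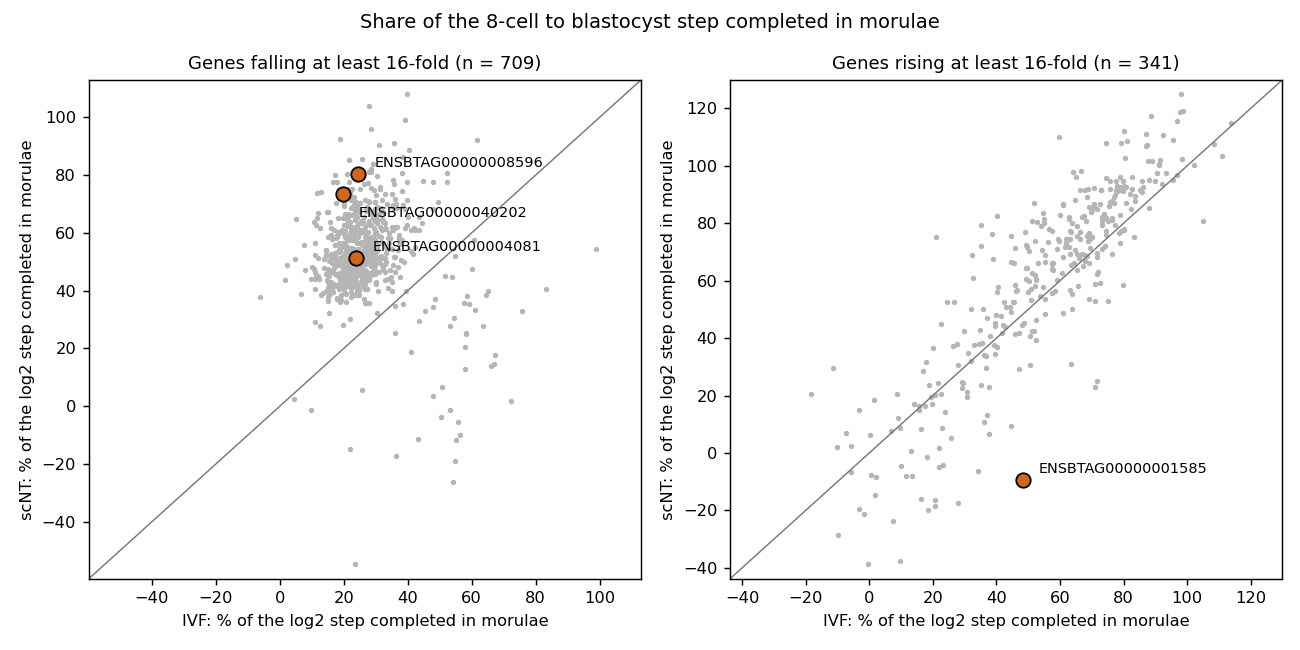
Share of the log2 step from the 8-cell embryo to the blastocyst already completed in morulae, in percent, with IVF on the horizontal and scNT on the vertical axis. Each grey point is a gene that fell (left, 709 genes) or rose (right, 341 genes) at least 16-fold in both methods, orange points are the members and the line marks equal shares. Most falling genes lie above the line, and ENSBTAG00000001585 lies far below it among the rising genes.

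To set the members beside other genes, the share of the log2 step from the 8-cell embryo to the blastocyst that was completed in morulae was computed. Across the 709 genes that fell at least 16-fold in both methods the median share was 24.5% in IVF and 51.5% in scNT, and 660 of them (93.1%) had a larger share in scNT. A larger completed share in scNT morulae was thus common among falling genes, the 3 members included. ENSBTAG00000004081 had 23.9% in IVF and 51.3% in scNT, at the 50.8th percentile of the difference. ENSBTAG00000040202 had 19.6% and 73.5%, and ENSBTAG00000008596 had 24.4% and 80.4%, at the 96.8th and 97.5th percentiles of the difference. The shares use the morula values on which the members were chosen, so the members' percentiles are a description and no test. By scNT library the median share over the 709 genes was 44.0%, 46.5% and 64.4% in replicates 2, 3 and 4, so the library with the lowest member values was also the one furthest along for falling genes in general. The members' differences without it are given above.

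Being higher in scNT at the 8-cell stage and lower in scNT morulae was common as well. Of the 709 falling genes 634 (89.4%) had that order of mean log2 levels, as had the 3 members. Their median difference, scNT minus IVF, was 0.49 at the 8-cell stage and -1.44 in morulae.

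Among the 341 genes that rose at least 16-fold in both methods, a comparison added after the values of ENSBTAG00000001585 had been seen, the median share was 58.3% in IVF and 67.8% in scNT, and 234 (68.6%) had a larger share in scNT. ENSBTAG00000001585 had 48.2% in IVF and -9.41% in scNT, the lowest difference of all 341 genes. This rank uses the morula values on which the gene was chosen, so it is a description and no test. Without scNT morula replicate 4 the scNT share of ENSBTAG00000001585 was 14.4%. By library the median share of the rising genes was 62.8%, 75.2% and 57.2% in scNT morula replicates 2, 3 and 4 and 52.9% to 63.1% in IVF morulae, so rising genes in general were not low in these scNT libraries.

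The remaining comparisons use no morula library, although the genes were chosen with earlier results of these data known. Most of the falling genes were higher in scNT at the 8-cell stage and lower in scNT morulae, as given above. Whether the order at the 8-cell stage goes with that in morulae was not tested. The 8-cell comparisons are therefore not shown to be independent of the choice of the genes. The first comparison asked how far the transcripts had changed between the oocyte and the 8-cell embryo. In IVF embryos 34.6% of 12770 genes were called (17.2% higher and 17.4% lower), and the 3 falling genes, which passed the filter on low values in each group, were called lower. ENSBTAG00000040202 fell by 1.67 ± 0.33 (SE) on the log2 scale (adjusted p = 0.00329), ENSBTAG00000008596 fell by 1.15 ± 0.32 (adjusted p = 0.0175) and ENSBTAG00000004081 fell by 0.57 ± 0.18 (adjusted p = 0.0298, n = 4 and 4; limma). ENSBTAG00000001585 was higher by 3.55 ± 0.54 (adjusted p = 0.00081), but with oocyte values of 1.8 to 3.5 it passed the filter only through the 8-cell libraries, where it is high, so this is a description and no support. The call of ENSBTAG00000004081 was lost without oocyte replicate 1, 3 or 4 or IVF 8-cell replicate 1 or 3, with adjusted p between 0.0524 and 0.101.

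In scNT embryos none of the falling genes was called against the oocyte, where 18.7% of 12541 genes were called (8.13% higher and 10.6% lower). ENSBTAG00000001585 was higher by 3.17 ± 0.62 (limma adjusted p = 0.00416) and again passed the filter only through the 8-cell libraries. The falling genes had log2 differences of -0.66 ± 0.32 for ENSBTAG00000040202, -0.40 ± 0.19 for ENSBTAG00000008596 and -0.08 ± 0.15 for ENSBTAG00000004081 (SE; limma adjusted p = 0.172, 0.161 and 0.755). At the 8-cell stage scNT embryos thus held 70.1%, 77.9% and 94.9% of the oocyte mean of these genes, and IVF embryos held 34.6%, 49.2% and 67.7%. Without scNT 8-cell replicate 1 ENSBTAG00000040202 was called in scNT as well, at -1.0 (adjusted p = 0.00375). With equal library totals ENSBTAG00000008596 was called, at -0.46 (adjusted p = 0.0454).

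Whether the 2 methods differed at the 8-cell stage was tested directly. The scNT minus IVF difference was 1.01 ± 0.45 for ENSBTAG00000040202, 0.75 ± 0.36 for ENSBTAG00000008596 and 0.49 ± 0.19 for ENSBTAG00000004081 (SE, n = 4 and 4; limma adjusted p = 0.371 for each). ENSBTAG00000001585 had -0.38 ± 0.80 (adjusted p = 0.79). No member was called, and limma called 0 of 13000 genes (0.00%), while 1642 had an unadjusted p under 0.05 and edgeR called 0. The unadjusted p was 0.0503 for ENSBTAG00000040202, 0.0656 for ENSBTAG00000008596 and 0.0277 for ENSBTAG00000004081. When same-numbered libraries were paired by a replicate block, 168 genes were called and no member was among them, with adjusted p between 0.121 and 0.182 for the falling genes. Within the same-numbered pairs scNT was higher in 4 of 4 for ENSBTAG00000004081 and ENSBTAG00000008596 and in 3 of 4 for ENSBTAG00000040202. The share of all genes with such counts was not computed, so these counts are a description. The median scNT minus IVF difference was 0.13 over the 13000 genes and 0.49 over the 709 falling genes.

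**Figure D3:**
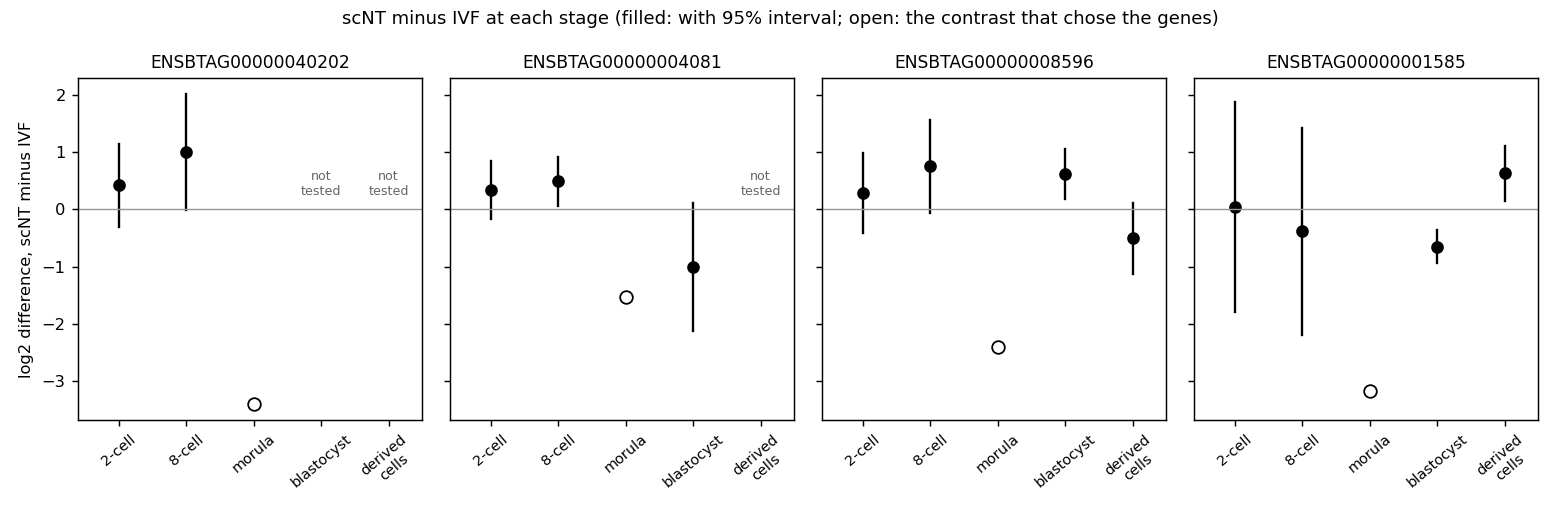
Log2 difference, scNT minus IVF (vertical axis), at each stage (horizontal axis) for each gene. Filled points carry the 95% interval of the limma fit, and open points mark the morula contrast on which the genes were chosen and have no interval. The points of the falling genes are above 0 at the 8-cell stage and far below 0 in morulae. At the 8-cell stage none was called, and the intervals of ENSBTAG00000040202 and ENSBTAG00000008596 include 0.

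At the 2-cell stage no member was called. The scNT minus IVF differences were 0.42 ± 0.33 for ENSBTAG00000040202, 0.34 ± 0.23 for ENSBTAG00000004081, 0.29 ± 0.32 for ENSBTAG00000008596 and 0.04 ± 0.82 for ENSBTAG00000001585 (SE, n = 4 and 4; limma adjusted p between 0.833 and 0.99). In all, 4 genes of 12195 (0.0328%) were called. The 95% intervals reached from -0.17 to 0.86 for ENSBTAG00000004081 and from -1.80 to 1.88 for ENSBTAG00000001585, so the latter was measured far less precisely. IVF 2-cell replicate 3 was the lowest library for each falling gene, with 145.5, 259.8 and 2379.3 normalized counts of ENSBTAG00000040202, ENSBTAG00000004081 and ENSBTAG00000008596, and the highest for ENSBTAG00000001585, with 53.1. Without it the differences were 0.05, 0.12, -0.04 and 0.70 in the order above.

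From the 8-cell embryo to the blastocyst the mean log2 level of the 3 falling genes was lower and that of ENSBTAG00000001585 higher in each method, in comparisons that called 70.5% of 13544 genes in IVF (34.0% higher and 36.6% lower) and 81.4% of 13395 in scNT (38.9% higher and 42.5% lower). In IVF the log2 changes were -4.30 ± 0.45 for ENSBTAG00000040202, -4.60 ± 0.28 for ENSBTAG00000004081, -5.47 ± 0.34 for ENSBTAG00000008596 and 4.90 ± 0.49 for ENSBTAG00000001585 (SE; limma adjusted p at most 1.05e-05). In scNT they were -7.17 ± 0.72, -6.10 ± 0.37, -5.60 ± 0.19 and 4.63 ± 0.66 in the same order (adjusted p at most 0.000216). ENSBTAG00000040202 and ENSBTAG00000004081 passed the filter on low values only with the 8-cell libraries, where they are high, so their tests are no support for a fall. ENSBTAG00000008596 and ENSBTAG00000001585 reached the filter in each group.

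The size of this step was then compared between methods, where 1.04% of 14460 genes were called (0.201% higher and 0.837% lower). No member passed the test. The scNT minus IVF difference of the steps was -2.87 ± 0.88 for ENSBTAG00000040202 and -1.50 ± 0.46 for ENSBTAG00000004081 (SE; limma adjusted p = 0.12 and 0.119). Leaving out scNT blastocyst replicate 2 took the first to -3.49 (adjusted p = 0.0458), and leaving out scNT blastocyst replicate 3 took the second to -1.86 (adjusted p = 0.0382). ENSBTAG00000040202 again passed the filter only with the 8-cell libraries. The scNT blastocyst values of the 2 genes were low, at 0.0 to 7.7 and 3.1 to 12.3, so their step sizes rest on few reads. These 2 crossings of the threshold are therefore no support for a difference. ENSBTAG00000008596 had -0.13 ± 0.42 and ENSBTAG00000001585 had -0.27 ± 0.89 (adjusted p = 0.885 and 0.894), with 95% intervals of -1.01 to 0.74 and -2.16 to 1.62.

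In blastocysts ENSBTAG00000001585 was the 1 called member of the 3 tested. It was lower in scNT by -0.65 ± 0.14 on the log2 scale (SE, n = 4 and 4; limma adjusted p = 0.0156), with means of 861 ± 163 in scNT and 1334 ± 28.5 in IVF blastocysts (SD), where 5.95% of 12607 genes were called (2.53% higher and 3.42% lower). All 4 scNT libraries were below all 4 IVF libraries. Without IVF blastocyst replicate 2 the difference was -0.64 and its adjusted p 0.0569. ENSBTAG00000008596 had 0.62 ± 0.21 (adjusted p = 0.0962), higher in scNT in 4 of 4 libraries, and ENSBTAG00000004081 had -1.01 ± 0.52 (adjusted p = 0.285).

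In blastocyst-derived cells the genes that pass the filter were ENSBTAG00000001585 and ENSBTAG00000008596. Neither was called, where 1.34% of 12390 genes were (0.638% higher and 0.702% lower). ENSBTAG00000001585 had 621.1, 799.1, 377.5 and 464.3 normalized counts in IVF derived cells and 938.1, 683.5, 930.4 and 851.7 in scNT derived cells, a log2 difference of 0.64 ± 0.22 (SE; limma adjusted p = 0.225). The groups overlapped, with scNT mostly higher. ENSBTAG00000008596 had a difference of -0.51 ± 0.29 (adjusted p = 0.51).

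Against IVF blastocysts, IVF derived cells had less ENSBTAG00000001585, by -1.29 ± 0.19 (limma adjusted p = 9.53e-05), and more ENSBTAG00000008596, by 0.90 ± 0.22 (adjusted p = 0.00294), where 66.9% of 13099 genes were called (32.6% higher and 34.3% lower). The scNT derived cells differed from scNT blastocysts by -0.01 ± 0.16 and -0.22 ± 0.28 (limma adjusted p = 0.969 and 0.502), where 67.0% of 12786 genes were called (32.9% higher and 34.1% lower). The difference between these steps was fitted after these values had been seen, and 1.50% of 13896 genes were called (0.828% higher and 0.669% lower). It was 1.29 ± 0.27 for ENSBTAG00000001585 (adjusted p = 0.0197) and -1.13 ± 0.35 for ENSBTAG00000008596 (adjusted p = 0.128). ENSBTAG00000001585 thus fell from the blastocyst to derived cells in IVF, and its step in scNT was higher than that by the test of the difference. For ENSBTAG00000008596 the difference was -1.37 without scNT derived cells replicate 4 (adjusted p = 0.0432).

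Of the falling genes, ENSBTAG00000040202 and ENSBTAG00000004081 ran most closely together. Over the 12 group means of log2 levels ENSBTAG00000040202 and ENSBTAG00000004081 had a Pearson r of 0.98, and ENSBTAG00000008596 had an r of 0.87 with each. ENSBTAG00000001585 had an r between -0.86 and -0.82 with the falling genes. These correlations describe groups that share their libraries and their order of development. Among 13092 other genes, 7.87% reached an r of at least 0.95 with ENSBTAG00000040202 and 7.95% with ENSBTAG00000004081. A high r is thus not particular to the members.

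For each member the most similar other gene over the 12 group means was sought among 13092 genes with a highest group mean of at least 50 normalized counts. The gene nearest to ENSBTAG00000040202 was ENSBTAG00000006256 (r = 0.997), with 24.6 ± 9.83 in IVF and 4.70 ± 1.92 in scNT morulae (SD, n = 4 and 3). The gene nearest to ENSBTAG00000004081 was ENSBTAG00000015525 (r = 0.998), with 128 ± 28.7 and 42.9 ± 24.1. ENSBTAG00000007994 was nearest to ENSBTAG00000008596 (r = 0.996), with 22.5 ± 3.29 and 9.0 ± 3.28. The means used for the match include both morula groups, so a lower level of these genes in scNT morulae follows from the match.

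The number of genes with a like profile differed between members, over means that include the morula groups on which the members were chosen. An r of at least 0.95 was reached by 1030 genes (7.87%) with ENSBTAG00000040202, by 1041 (7.95%) with ENSBTAG00000004081 and by 285 (2.18%) with ENSBTAG00000008596. With ENSBTAG00000001585 5 genes (0.0382%) reached it. The nearest of these, ENSBTAG00000016277 (r = 0.975), had 0.575 ± 0.492 normalized counts in oocytes, 66.4 ± 20.2 in IVF and 25.1 ± 21.6 in scNT morulae, and 477 ± 68.1 and 306 ± 74.0 in IVF and scNT blastocysts (SD, n = 3 for scNT morulae, 4 otherwise).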

How the data were processed

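The deposited table held 1 normalized read count per gene and library for 20526 genes in 47 libraries, a signal that the authors made by dividing each library by a single factor. FastQC, MultiQC, STAR and DESeq2 with genome build UMD3.1 are named in the submitters' processing notes, with no version, annotation or counting tool given in the sources used here. Per the labels' protocols, libraries were made with a low-input kit and several rounds of PCR, so intervals and limits from reads cover counting error only. Each library's values were whole multiples of a step between 0.477 and 2.04: 100% of values above 0 up to 2000 steps lay within 0.06 normalized counts of a whole multiple, against 5.88% to 25.1% by chance, which gave the recovered reads. Among 69 replicate pairs the chi-square per degree of freedom was at least 6.67, so no pair agreed within sampling noise.

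A gene entered a comparison if its value reached 10 in at least the number of libraries of the smaller group. The test was limma 3.58.1 (trend, robust) in R 4.3.3 on log2(value + 1), with only the groups compared and no replicate block. Alternatives were a pseudocount of 0.5, no filter, equal library totals, edgeR 4.0.16 on recovered reads, a replicate block and leaving out each library. Replicate numbers come from the titles. Same-numbered libraries were taken as paired where every r of their deviations was above 0.1. This held at the 2-cell (r 0.118 to 0.683) and 8-cell stages (0.231 to 0.563), and not in the other comparisons. At the 8-cell stage 4 of 4 scNT libraries matched best with their own number. At the 2-cell stage 2 of 4 did, and in derived cells 3 of 4, so the pairing at the 2-cell stage is uncertain. Named genes were the 4 members and, for each, the gene with the highest r. The members and lists were chosen with earlier results of these data known. Of the 20526 identifiers, 0 matched the RefSeq table (assembly ARS-UCD2.0), so the lists of oocyte, fibroblast, cumulus, trophectoderm, inner cell mass and RNA decay genes could not be used.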

Additional observations from a re-analysis of the deposited data

Results flagged for a closer look

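Of the 44 combinations of a gene and a group of 4 libraries, 3 had a library far from the other 3, where chance gives about 1 in 20. ENSBTAG00000001585 had 40.9 normalized counts in scNT 2-cell replicate 3, and the other scNT 2-cell libraries had 6.3 to 10.9. ENSBTAG00000040202 had 0.8 in fibroblast replicate 4 and 1.1 in IVF blastocyst-derived cells replicate 3, with 0 in the other libraries of each group, and these values rest on 1 read each. The step from blastocysts to derived cells differed between methods for ENSBTAG00000001585, by 1.29 on the log2 scale (limma adjusted p = 0.0197), in a fit chosen after seeing the data.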

How the results depend on the processing

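All values here are from limma fits unless stated, and adjusted p under 0.05 defines a call. Outside leaving out libraries, 214 member differences kept their direction and their side of the threshold, 4 reversed, 1 lost its call and 1 gained one. The reversed values were small: ENSBTAG00000001585 at the 2-cell stage with equal library totals (-0.086) and edgeR (-0.45), and, in scNT derived cells against scNT blastocysts with equal totals, ENSBTAG00000001585 (0.27) and ENSBTAG00000008596 (0.056). The lost call was ENSBTAG00000004081 in IVF 8-cell embryos against oocytes with a replicate block (adjusted p = 0.0544). Counts of called genes moved by over 1.5 times with edgeR at the 2-cell stage (2, from 4) and for the 8-cell to blastocyst step between methods (82, from 150). At the 8-cell stage, from 0, there were 2 with no filter, 1 with equal totals and 168 with the replicate block. The block gave 2 in morulae (from 2542) and 302 in derived cells (from 166), where the rule did not pair the libraries. It changed no other member's call. For the blastocyst to derived cells step, equal totals gave 340 (from 208). Equal totals moved the median of all genes in morulae from 0.05 to -0.11, and the split of higher and lower calls from 1002 and 1540 to 402 and 1916. In blastocysts the split went from 319 and 431 to 173 and 930, and in scNT derived cells against blastocysts from 4207 and 4364 to 5290 and 3117. For the step to derived cells between methods it went from 115 and 93 to 281 and 59. The cause was not tested. The day of loss of ENSBTAG00000004081 in scNT was 6 at a limit of 25%.

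Leaving out 1 library at a time gave counts of 0 to 8 for 2-cell embryos, 0 to 82 for 8-cell embryos, 114 (without IVF replicate 2) to 2666 in morulae, 316 to 860 in blastocysts, 80 to 134 in derived cells, 1319 to 2598 for scNT 8-cell embryos against oocytes, 35 to 1276 (without IVF 8-cell replicate 4) for the 8-cell to blastocyst step between methods, and 96 to 223 for the step to derived cells. The day of loss of ENSBTAG00000004081 in scNT was 6 to 8. Differences that changed sign were those of ENSBTAG00000001585 at the 2-cell (-0.63 to 0.70) and 8-cell stages (-1.01 to 0.16), in scNT derived cells against blastocysts (-0.13 to 0.10) and in the 8-cell to blastocyst step between methods (-0.81 to 0.36). For ENSBTAG00000008596 they were the 2-cell stage (-0.041 to 0.42), scNT derived cells against blastocysts (-0.47 to 0.028) and the 8-cell to blastocyst step (-0.35 to 0.24). The scNT share of the rise of ENSBTAG00000001585 ranged from -22.7% to 14.4%. Depth limits ENSBTAG00000040202 and ENSBTAG00000001585 most in scNT morula replicate 4, with 1 and 3 reads.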
